A study of Canis lupus familiaris with 15 samples.

Results

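The integrin and laminin genes were followed in primary osteosarcomas of 15 dogs, measured on Affymetrix Canine 2.0 arrays with 1 array per dog. Genes were chosen by name: every symbol of the array's annotation for an integrin alpha chain, an integrin beta chain or a laminin chain. The probesets that carry a single gene symbol named 15115 genes, and 35 of these belonged to the families: 17 integrin alpha chains, 8 integrin beta chains and 10 laminin chains. Those 35 genes had 92 probesets, and each gene was described by the one with the highest mean over the 15 arrays. ITGAD shared its only probeset with a second symbol, and no probeset was named for LAMA2, so these chains were not analysed here.

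The dogs had been split by disease free interval (DFI), counted up to the finding of metastasis. The DFI < 100 cohort comprised 8 dogs whose interval was under 100 days, the poor responders. The DFI > 300 cohort comprised 7 dogs whose interval exceeded 300 days, the good responders. Tumors of both cohorts were flash frozen at amputation, before any chemotherapy, and all dogs were then treated with doxorubicin, a platinum drug or both. The dogs of the DFI < 100 cohort were 4.4 to 10.8 years old (7.80 ± 2.28, SD, n = 8), and those of the DFI > 300 cohort were 7.1 to 13.4 years old (10.5 ± 2.27, SD, n = 7). The DFI < 100 cohort held 3 Greyhounds, 1 Rottweiler, 1 Labrador Ret., 1 Doberman, 1 Golden Ret. and 1 dog of mixed breed, while the DFI > 300 cohort held 1 Greyhound, 1 Rottweiler, 1 Golden Ret. and 4 dogs of mixed breed. Tumors were osteoblastic in 5 dogs of the DFI < 100 cohort and 6 dogs of the DFI > 300 cohort, and of the giant cell type in 3 dogs of the DFI < 100 cohort and 0 of the DFI > 300 cohort. The remaining tumor, of dog 188084 in the DFI > 300 cohort, was poorly differentiated. These are client-owned dogs with natural tumors, so age, breed and tumor subtype varied along with the cohort.

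An integrin is a pair of 1 alpha and 1 beta chain that spans the cell membrane and ties the extracellular matrix to the actin skeleton, and a cell needs both chains to bring the pair to its surface. A laminin is a cross-shaped trimer of an alpha, a beta and a gamma chain that forms the sheet of the basement membrane under epithelium and around vessels, muscle fibers and nerves. In bone, osteoclasts grip the mineral surface through the ITGAV and ITGB3 pair, and bone-forming cells hold collagen and fibronectin through pairs with ITGB1.

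The values are PLIER signals, a model-based summary of the probes of a probeset, given here as log2. A difference of 1 on this scale is a doubling of signal. Probes differ in how brightly they bind, so the order of signals between genes is not an order of mRNA amounts. A background mark was taken from 64 control probesets for reporter sequences, whose 95th percentile averaged 6.79 over the arrays, and it ranged between 6.53 and 7.12 among arrays. A gene whose mean lay above 6.79 is called above the reporter level. The median signal of an array, on the linear scale, was 46.6 to 53.9 in the DFI < 100 cohort and 48.6 to 54.7 in the DFI > 300 cohort, and the log2 ratio of 3' over 5' signal in the housekeeping controls, which reports on RNA integrity, was 1.63 to 2.73 in the DFI < 100 cohort and 1.46 to 2.38 in the DFI > 300 cohort. Markers of bone-forming cells were present: 6 of 9 measured osteoblast genes lay above the reporter level, led by COL1A2 with a mean of 13.64 and COL1A1 with 13.08. Macrophage markers were above it for 10 of 10 genes, endothelial markers for 5 of 10, mural (pericyte and smooth muscle) markers for 5 of 9, osteoclast markers for 4 of 6, T cell markers for 0 of 9 and epithelial markers for 0 of 6. The libraries are bulk tumor, so fewer cells of a type and less RNA per cell cannot be told apart.

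Of the 35 genes, 16 lay above the reporter level, against 6448 of the 15115 named genes. These were 7 alpha chains, 5 beta chains and 4 laminin chains. The chain with the highest signal was ITGAV, the alpha chain of the vitronectin receptors, with a mean of 12.33. Its signal was 11.63, 12.32 and 13.25 (lowest, median and highest dog) in the DFI < 100 cohort, against 11.33, 12.48 and 12.73 in the DFI > 300 cohort. ITGB5, one of its beta partners, followed with a mean of 11.60. LAMA4, the laminin alpha chain of vessel walls, averaged 11.44. ITGB1, the beta chain shared by most collagen, fibronectin and laminin receptors, averaged 10.46, and the laminin beta chain LAMB1 averaged 10.36. The other chains above the reporter level had means between 6.86 and 9.45. They included ITGA6 and ITGA7, which pair with ITGB1 as laminin receptors, ITGA5, the fibronectin receptor, and ITGA2, a collagen receptor. Also among them were LAMC1, the gamma chain of most laminins, and LAMB2. ITGB2 and ITGB7, beta chains of white blood cells, were above the reporter level at 7.18 and 7.54. All 15 dogs exceeded the reporter level of their own array for ITGAV, ITGB5, LAMA4, ITGB1, LAMB1, ITGA6 and ITGA5.

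**Figure D1:**
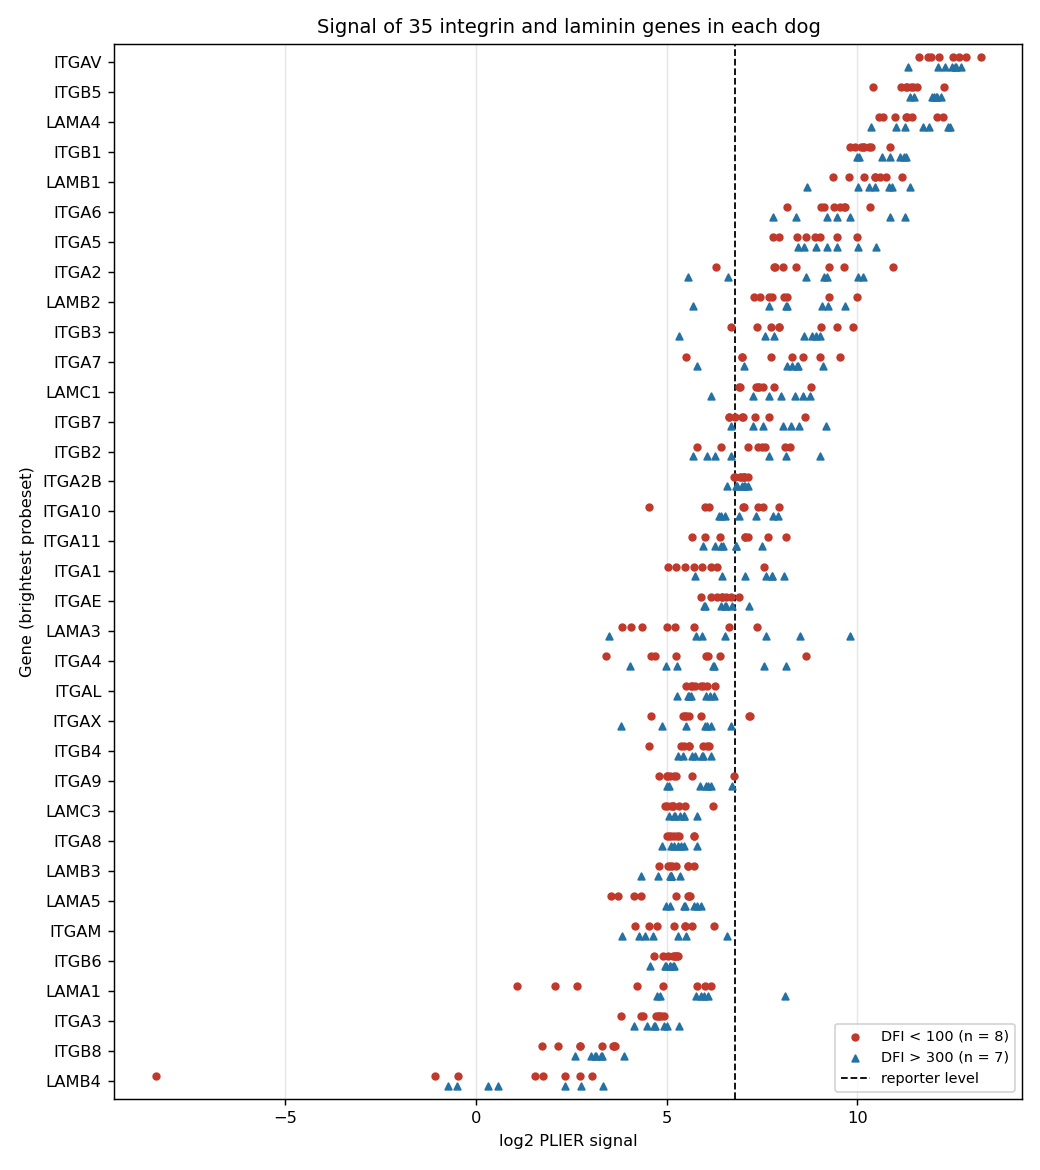
Signal of each of the 35 genes in each dog, as log2 PLIER signal of the gene's brightest probeset on the x axis, with circles for the 8 dogs of the DFI < 100 cohort and triangles for the 7 dogs of the DFI > 300 cohort. The genes are sorted by their mean, and the dashed line is the reporter level at 6.79, which 16 genes exceed on average.

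The other 19 genes averaged at or below the reporter level. They included the chains of epithelial anchoring: ITGA3 averaged 4.66, ITGB4 (the hemidesmosome chain) 5.66, ITGB6 5.06, LAMB3 5.14 and LAMA5 5.08. The same held for the leukocyte alpha chains ITGAL at 5.82, ITGAM at 5.07, ITGAX at 5.73 and ITGAE at 6.46, although ITGB2, which pairs with the first 3 of these, was above the mark. ITGB8, an activator of latent TGF-beta when paired with ITGAV, averaged 3.06, and LAMB4 had the lowest mean at 0.64. No dog exceeded the reporter level of its own array for ITGAL, ITGB4, LAMC3, ITGA8, LAMB3, LAMA5, ITGAM, ITGB6, ITGA3, ITGB8 or LAMB4. For these genes the level is not distinguishable from background on this array, which is not the same as a lack of expression.

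The genes above the reporter level differed in how much they varied among dogs. Their median SD over the 15 dogs was 0.79, against 0.50 for all named genes above the reporter level. The most variable was ITGA2, with an SD of 1.51. Its signal was 6.29, 8.22 and 10.93 (lowest, median and highest dog) in the DFI < 100 cohort, against 5.55, 9.14 and 10.16 in the DFI > 300 cohort. Dog 208911 was highest, dog 208513 lowest, and the cohorts overlapped over nearly the whole range. ITGA7, a laminin receptor chain of muscle, had an SD of 1.18. Its signal was 5.50, 8.01 and 9.56 in the DFI < 100 cohort, against 5.79, 8.28 and 9.10 in the DFI > 300 cohort, with dogs 208756 and 193231 apart at the low end. ITGB3, the beta chain of the osteoclast and platelet receptors, had an SD of 1.17. Its signal was 6.69, 7.94 and 9.89 in the DFI < 100 cohort, against 5.33, 8.61 and 9.02 in the DFI > 300 cohort. For this gene dog 208513 lay well under its cohort, whose next value was 7.57. LAMB2 had an SD of 1.09, with 7.28, 7.91 and 9.99 in the DFI < 100 cohort, against 5.70, 8.17 and 9.68 in the DFI > 300 cohort, where dog 193231 was lowest. ITGB2 had an SD of 0.99, with 5.80, 7.45 and 8.22 in the DFI < 100 cohort, against 5.69, 6.69 and 9.02 in the DFI > 300 cohort, where dog 180119 stood highest. At the other end, ITGA2B, the platelet alpha chain, had an SD of 0.15 and a mean of 6.94, close to the reporter level.

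A single dog often carried the low end. Dog 208513 of the DFI > 300 cohort had the lowest of the 15 signals for 6 of the 16 genes above the reporter level, and dog 208756 of the DFI < 100 cohort for 3. Dogs 208911 of the DFI < 100 cohort and 188084 of the DFI > 300 cohort each had the highest for 3. Dog 208756 also had the lowest mean of its cohort on the osteoblast, endothelial, mural, macrophage and osteoclast lists, and dog 208513 the lowest of its cohort on the endothelial, macrophage and osteoclast lists.

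Where a gene had more than 1 probeset, which was so for 22 genes, the 2 brightest were compared. Their Pearson's r over the 15 dogs was 0.995 for ITGA2, 0.990 for LAMB2, 0.983 for ITGAV, 0.982 for LAMC1, 0.970 for LAMA4, 0.962 for LAMB1, 0.953 for ITGA7 and 0.942 for ITGB5. It exceeded 0.85 also for ITGB2, ITGA6 and ITGA5. In all, 14 of the 22 pairs had an adjusted permutation p under 0.05. The 8 pairs that did not were ITGB1, LAMA1, ITGA8, ITGAL, ITGB6, LAMA3, LAMB3 and ITGAE. In each of these the second probeset was below the reporter level, and r lay between -0.45 for ITGAE and 0.44 for ITGB1. Whether the 2 probesets of a gene share probes was not examined, so a high r is not an independent check. Those of LAMB2, ITGB1, ITGB6 and ITGAE differ only in the ending of their names.

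Next, the signals of chains that form a dimer or a trimer were compared across dogs, together with the relation of chains to marker lists. This gave 61 pairs, of which 31 joined partner chains and 30 joined a chain to the mean of a marker list. Permutation p-values came from 100000 resamples and were adjusted over the 61 pairs. Of these, 14 had an adjusted p under 0.05, 11 of them by both Pearson's r and Spearman's rho. The closest partners were ITGB1 and ITGA1, the chains of a collagen receptor, with r of 0.887 and rho of 0.779 (adjusted permutation p of 0.000813 and 0.0203). Without the 2 dogs farthest from the median r was 0.852, and within the cohorts it was 0.818 for DFI < 100 and 0.877 for DFI > 300. LAMA4 and LAMC1, both chains of the laminin of vessel walls, had an r of 0.765 and rho of 0.725 (adjusted permutation p of 0.0105 and 0.0211), and r was 0.655 without the 2 farthest dogs. ITGB2 and ITGAX, a phagocyte receptor, had an r of 0.741 and rho of 0.743 (adjusted permutation p of 0.0105 and 0.0203), and r was 0.766 without 2 dogs. ITGB2 and ITGAM had an r of 0.662 (adjusted permutation p of 0.0373) but missed the threshold by rho, and r was 0.534 without 2 dogs. ITGB3 and ITGA2B had an r of 0.646 (adjusted permutation p of 0.0409) with a rho of 0.507 that missed it (adjusted permutation p of 0.197), and r was 0.501 without 2 dogs. In these pairs ITGA1, ITGAX and ITGAM averaged below the reporter level. They exceeded that of the dog's own array in 6, 3 and 0 of 15 dogs. ITGA2B was close to the reporter level, with a mean of 6.94 and an SD of 0.15.

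Other known partners did not pass. ITGAV had an r of 0.558 with ITGB3 (adjusted permutation p of 0.102), of 0.188 with ITGB1 and of -0.189 with ITGB5, its brightest partner. ITGB1 had an r of 0.601 with ITGA5 (adjusted permutation p of 0.0679). LAMB1 had an r of 0.151 with LAMC1. The bulk level of a chain that has several partners is a sum over them and over cell types, and which cells gave the signal was not measured.

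Several chains varied along with marker lists. ITGB2, which white blood cells carry, had an r of 0.928 and a rho of 0.889 with the macrophage list, a mean over CD68, CSF1R, CD163, the C1Q chains and others (adjusted permutation p of 0.00061 and 0.00183 over the 61 pairs). Its r was 0.891 without the 2 farthest dogs, 0.929 within DFI < 100 and 0.951 within DFI > 300. Dog 180119 had both the highest ITGB2 and the highest macrophage mean, at 9.02 and 10.80. ITGB3 had an r of 0.861 and a rho of 0.750 with the osteoclast list, which includes CTSK, ACP5 and MMP9 (adjusted permutation p of 0.00061 and 0.0203). Its r was 0.761 without dogs 208911 and 208513, 0.756 within DFI < 100 and 0.938 within DFI > 300. ITGAV had an r of 0.741 and a rho of 0.854 with the same list (adjusted permutation p of 0.0105 and 0.00457). ITGB3 also had an r of 0.784 and a rho of 0.675 with the endothelial list (adjusted permutation p of 0.0105 and 0.0431). That r was 0.600 without dogs 208911 and 208513. ITGA1 had an r of 0.691 with the endothelial list and 0.631 with the mural list (adjusted permutation p of 0.0186 and 0.0373), and LAMC1 had an r of 0.706 with the endothelial list, which was 0.446 without dogs 208911 and 208513. That LAMC1 pair missed the threshold by rho (adjusted permutation p of 0.0664). With the endothelial list ITGA5 had an r of 0.668 and a rho of 0.739 (adjusted permutation p of 0.0322 and 0.0204). With the macrophage list ITGAM, below the reporter level, had an r of 0.696 and a rho of 0.675 (adjusted permutation p of 0.0253 and 0.0431). That r was 0.446 without dogs 180119 and 208513. LAMA4 had an r of 0.602 with the endothelial list and missed the threshold (adjusted permutation p of 0.0571 by r and 0.145 by rho). LAMB1 and LAMA5 did not pass with that list either, at r of 0.03 and -0.13.

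When all 35 genes were set against the 10 cell type lists, 350 pairs in all, 12 had an adjusted permutation p under 0.05 by r and 4 of these by both r and rho. Those 4 were ITGB2 with the macrophage list, ITGA2 with the osteoclast and endothelial lists, and ITGAV with the osteoclast list. ITGA2 had an r of 0.922 and a rho of 0.925 with the osteoclast list, with r of 0.849 without dogs 208756 and 208513, 0.856 within DFI < 100 and 0.974 within DFI > 300. It had an r of 0.844 and a rho of 0.861 with the endothelial list. In the DFI < 100 cohort the giant cell tumors, of dogs 153599, 204714 and 208911, had the highest osteoclast means (9.52, 9.56 and 9.55). They also had its highest ITGA2 signals (9.27, 9.65 and 10.93). The DFI > 300 cohort held no giant cell tumor, and its dog 180119 had 9.52 and 10.02. A relation to subtype was not tested. ITGA6 had an r of 0.862 with the macrophage list, and 0.772 without dogs 180119 and 190030. ITGA5 had an r of 0.799 with the mural list, and 0.614 without dogs 208756 and 188084. ITGA7 had an r of 0.783 with the osteoclast list, and 0.637 without dogs 208756 and 193231. The lists themselves were related, with an r of 0.68 between the endothelial and osteoclast lists and 0.66 between the macrophage and osteoclast lists, so an r with one list is not independent of the others. No pair with the osteoblast list passed, and the r of the genes above the reporter level with it lay between -0.27 for ITGB5 and 0.21 for LAMB2.

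**Figure D2:**
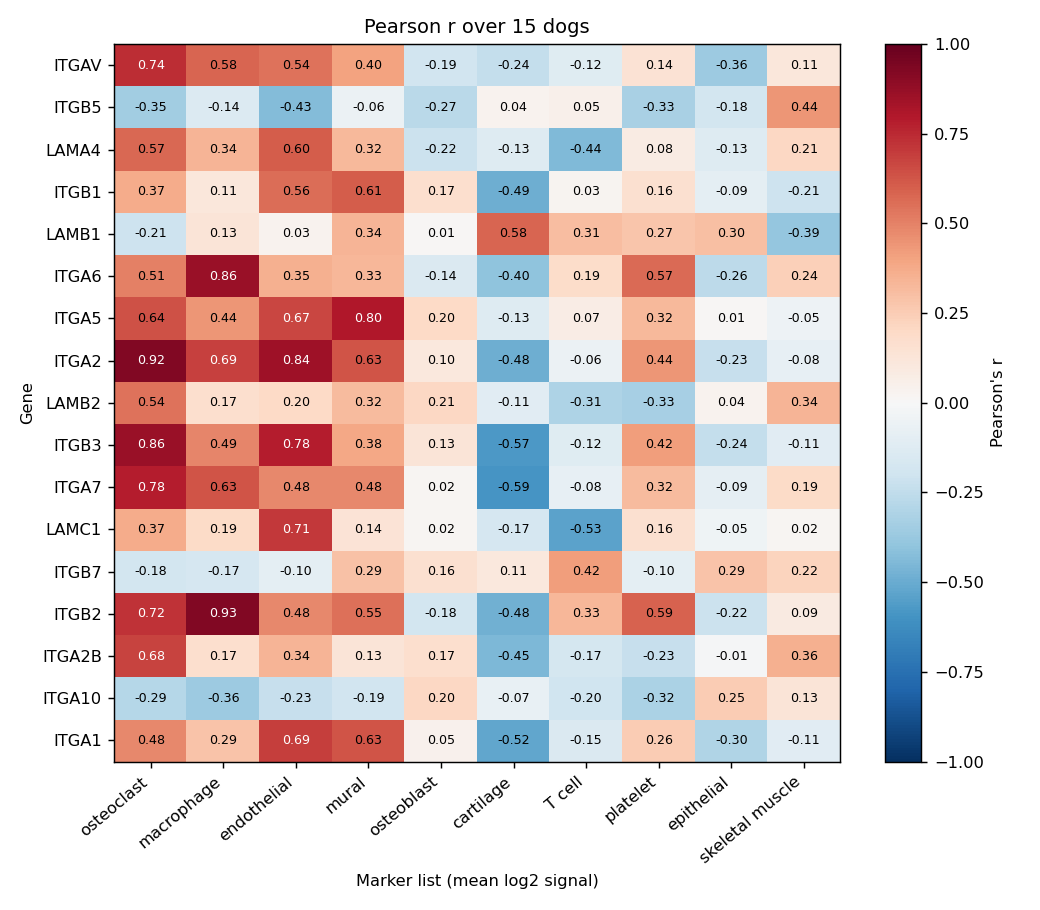
Pearson's r over the 15 dogs between the signal of a gene (rows, the 16 genes above the reporter level and ITGA1) and the mean signal of a marker list (columns), colored between -1 and 1. ITGB2 with the macrophage list (0.93) and ITGA2 with the osteoclast list (0.92) have the highest values, while the osteoblast column stays near 0.

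**Figure D3:**
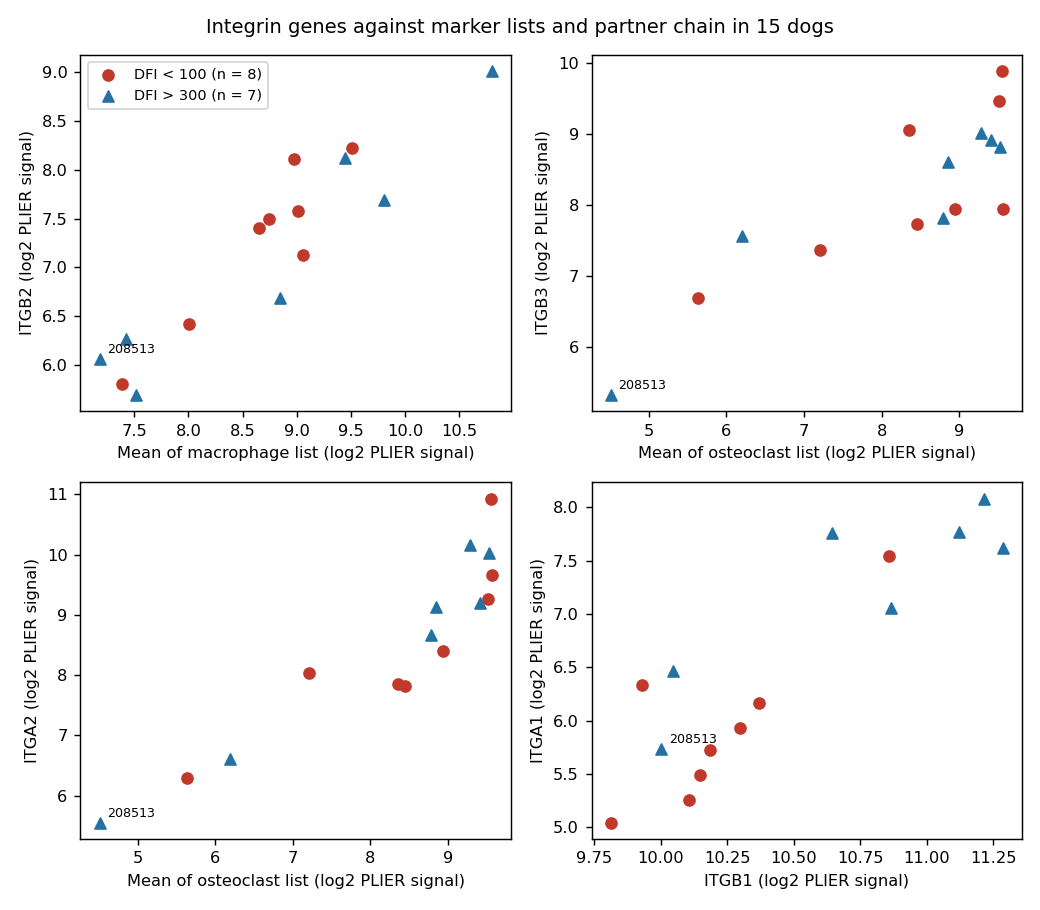
Signals in the 8 dogs of the DFI < 100 cohort (circles) and the 7 dogs of the DFI > 300 cohort (triangles), all axes in log2 PLIER signal: ITGB2 against the macrophage list, ITGB3 and ITGA2 against the osteoclast list, and ITGA1 against ITGB1. Dog 208513 is at or near the low end of each panel.

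Among the 16 genes above the reporter level, 9 of 120 pairs had an adjusted permutation p under 0.05 by r, 4 of them by both r and rho, and ITGA2 was in 5 of the 9. Its r was 0.849 with ITGB3 (0.693 without dogs 208756 and 208513), 0.772 with ITGB2, 0.756 with ITGAV and 0.747 with ITGA5, which are the 4 that passed by both, and 0.752 with ITGA7, which missed the threshold by rho. ITGA2 pairs with ITGB1 alone, with which it is not among the 9 pairs. The others, all of which missed it by rho in this family, were ITGA7 with ITGB2, LAMA4 with LAMC1, ITGA6 with ITGB2 and ITGAV with LAMA4. The sources used here do not say in which batch each array was run, so none of these relations could be recomputed within batches.

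The comparison of the DFI < 100 and DFI > 300 cohorts asked whether chains of cell adhesion in the primary tumor differ between poor and good responders. With limma and Benjamini-Hochberg adjustment over 42860 probesets, 0 probesets (0%) passed an adjusted p of 0.05, and the methods' t-test also called 0. At an unadjusted p under 0.05, limma called 1578 probesets (3.68%), 1.85% lower and 1.83% higher in the DFI < 100 cohort, and the methods' t-test 1567 (3.66%). So no integrin or laminin gene passed the adjusted test either, with adjusted p from limma of 0.999 or above for all 35. The differences below are therefore values with their errors.

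Of the 35 genes, 23 had a lower mean in the DFI < 100 cohort and 12 a higher one. That is 65.7% lower, against 47.2% of all named genes and 49.1% of all probesets, and the median difference was -0.16 over the 35 genes and 0.02 over all named genes. The chains vary together across dogs, so these counts are not counts of independent events. An unadjusted limma p under 0.05 was reached by 5 of the 35 (14.3%), each lower in the DFI < 100 cohort, against 1.63% of all named genes for that direction. None was higher, against 1.94% of all named genes. The 17 integrin alpha chains divided into 9 lower and 8 higher, and their median difference was -0.06. The 8 integrin beta chains divided into 5 lower and 3 higher (median -0.21). The laminins leaned furthest: 9 of 10 chains were lower, all but LAMB3 at 0.29, and their median was -0.29. LAMB1, LAMB2 and LAMC3 count as lower with -0.02, -0.03 and -0.05, each smaller than its SE. LAMB4, far under the reporter level, counts as lower by its mean (-0.97), which includes dog 173175 at -8.39. Its median was higher in the DFI < 100 cohort, at 1.66 against 0.57. All 4 laminin alpha chains were lower, with a median of -1.15, although 3 of them were near background. The alpha chains that bind laminin were lower in 3 of 3 genes by between -0.18 and -0.06. The alpha chains that bind the RGD motif were lower in 1 of 4, and the leukocyte alpha chains in 1 of 4.

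**Figure D4:**
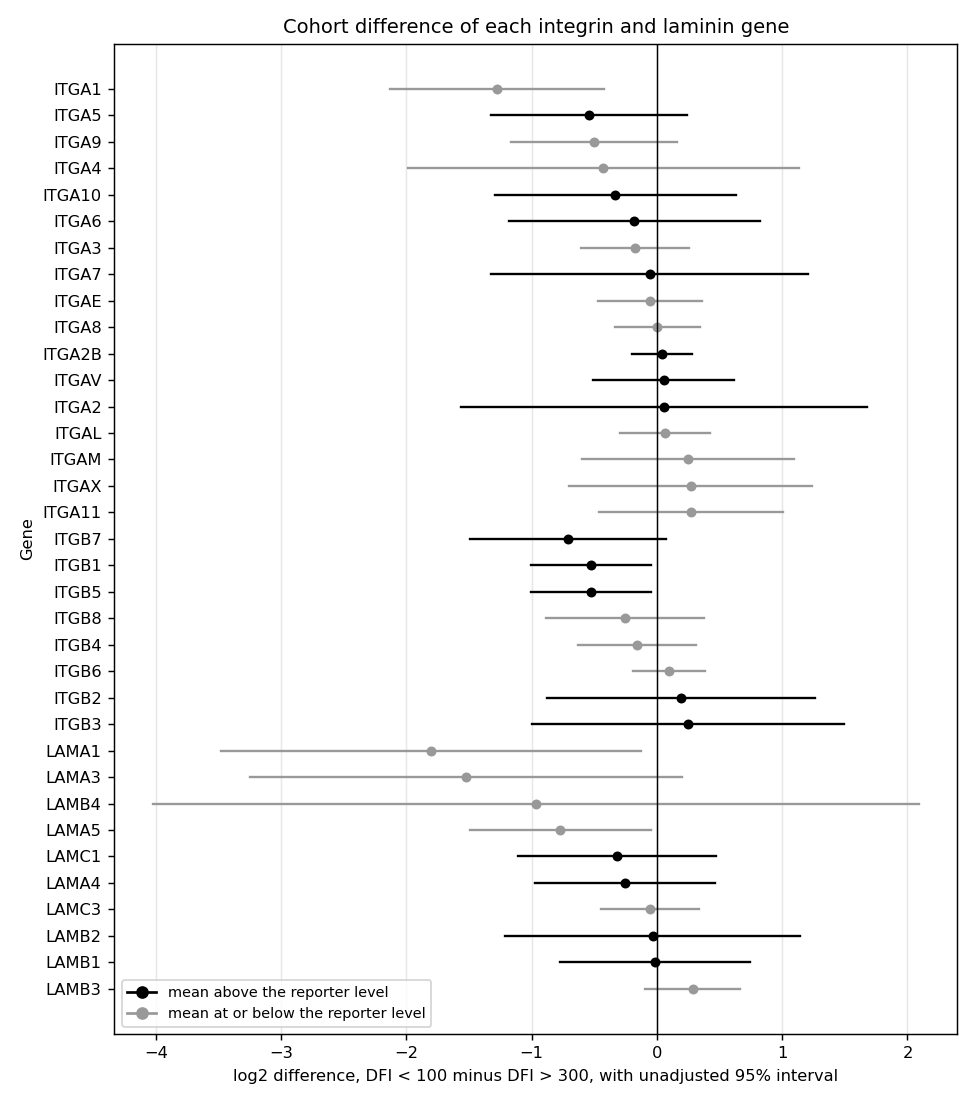
Difference in mean log2 PLIER signal, DFI < 100 minus DFI > 300, for each of the 35 genes with its unadjusted 95% limma interval. Black marks genes above the reporter level and grey those at or below it. The intervals of ITGA1, ITGB1, ITGB5, LAMA1 and LAMA5 lie wholly under 0, and no adjusted p was under 0.05.

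ITGA1, the alpha chain of a collagen receptor of vessel, muscle and mesenchymal cells, had the smallest p of the 35 genes. Its signal was 5.04, 5.83 and 7.54 (lowest, median and highest dog) in the DFI < 100 cohort, against 5.73, 7.62 and 8.08 in the DFI > 300 cohort. All 8 dogs of the DFI < 100 cohort lay under the median of the DFI > 300 cohort and 4 lay under its lowest dog, yet dog 208911 at 7.54 fell inside it. The mean was 5.93 ± 0.78 (SD, n = 8) in the DFI < 100 cohort and 7.21 ± 0.85 (SD, n = 7) in the DFI > 300 cohort, a difference of -1.28 with an SE of 0.40 (limma unadjusted p of 0.00608, exact permutation p of 0.0124, 2-sided, 6435 splits). The gene is close to background: its signal passed the reporter level of the dog's own array in 1 of 8 dogs of the DFI < 100 cohort and 5 of 7 dogs of the DFI > 300 cohort.

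ITGB1, the beta chain that ITGA1 needs, was far above background. Its signal was 9.81, 10.17 and 10.86 in the DFI < 100 cohort, against 10.003, 10.87 and 11.29 in the DFI > 300 cohort. All 8 dogs of the DFI < 100 cohort lay under the DFI > 300 median, 4 dogs of the DFI > 300 cohort lay above every DFI < 100 dog, and dogs 208513 and 180223 of the DFI > 300 cohort were among the low ones. The difference was -0.53 with an SE of 0.22 (limma unadjusted p of 0.0331, exact permutation p of 0.0385, 2-sided), or 1.44-fold lower. The second probeset of the gene, which was near background, had a difference of -0.82 (limma unadjusted p of 0.0248). ITGA1 and ITGB1 were correlated across dogs (above), so their differences are not separate observations.

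ITGB5 pairs with ITGAV to bind vitronectin. Its signal was 10.42, 11.36 and 12.27 in the DFI < 100 cohort, against 11.38, 12.00 and 12.20 in the DFI > 300 cohort. In the DFI < 100 cohort 7 of 8 dogs lay under the DFI > 300 median, but dog 208756 had the highest signal of all 15. The difference was -0.53 with an SE of 0.22 (limma unadjusted p of 0.0332, exact permutation p of 0.0339, 2-sided), or 1.44-fold lower. The gene had 5 probesets, of which the 4 above the reporter level were all lower, by -0.53, -0.86, -0.94 and -0.66, the first 3 with an unadjusted limma p under 0.05. The fifth, near background, had a difference of 0.05.

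LAMA1 and LAMA5 are laminin alpha chains of basement membranes, and both were near background. LAMA5 was 3.55, 4.78 and 5.61 in the DFI < 100 cohort, against 5.00, 5.47 and 5.91 in the DFI > 300 cohort. The 4 lowest dogs of the DFI < 100 cohort lay under every dog of the DFI > 300 cohort, and the other 4 lay within its range. Its difference was -0.77 with an SE of 0.34 (limma unadjusted p of 0.0384, exact permutation p of 0.0517, 2-sided). LAMA1 was 1.07, 4.57 and 6.16 in the DFI < 100 cohort, against 4.75, 5.90 and 8.12 in the DFI > 300 cohort. Its spread was wide, with dog 153599 lowest and dog 193231 highest, the only dog above the reporter level. Its difference was -1.80 with an SE of 0.79 (limma unadjusted p of 0.0364, exact permutation p of 0.0561, 2-sided). No fold is given for these 2 genes, because nearly all dogs of both cohorts were below the reporter level.

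**Figure D5:**
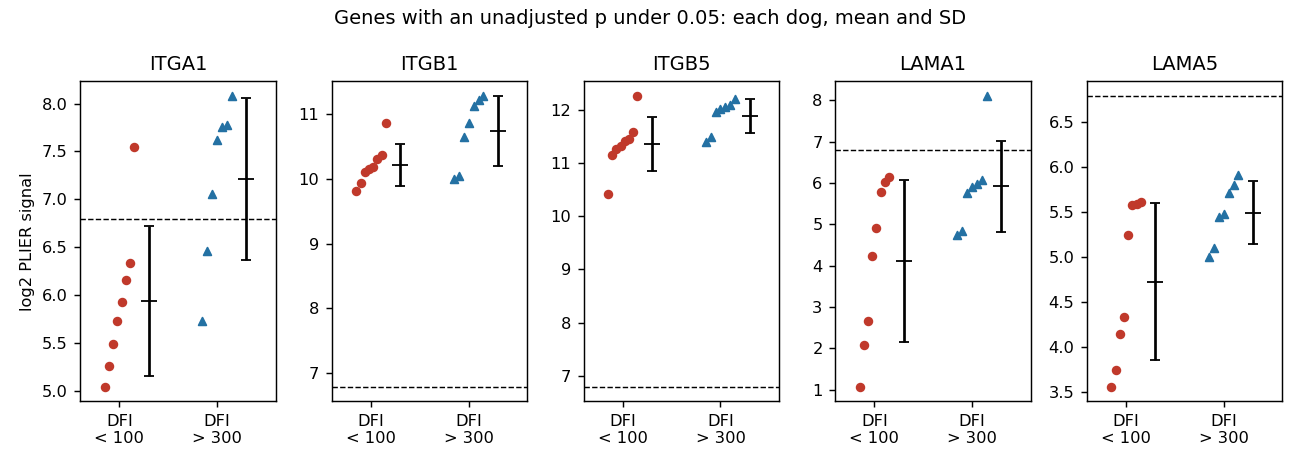
Signals of the 5 genes with an unadjusted limma p under 0.05 in each dog (circles, DFI < 100, n = 8; triangles, DFI > 300, n = 7) with the cohort mean and SD beside them, in log2 PLIER signal, each panel on its own axis. The dashed line is the reporter level at 6.79; ITGB1 and ITGB5 lie well above it, and the cohorts overlap for every gene.

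LAMA3, the alpha chain of epithelial laminin, was wide among dogs. Its signal was 3.82, 5.12 and 7.36 in the DFI < 100 cohort, against 3.49, 6.53 and 9.81 in the DFI > 300 cohort. Dogs 190030 and 180223 were highest and dog 208513 lowest, so the DFI > 300 cohort held both ends of the range. The difference was -1.52 with an SE of 0.81 (limma unadjusted p of 0.0793). A dimmer probeset of the gene had a difference of -1.54 (limma unadjusted p of 0.0253), and another one -0.14. LAMB3, the beta chain that joins it in a trimer, averaged 5.14, below the reporter level.

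LAMA4, the laminin alpha chain with the highest signal, was 10.57, 11.29 and 12.24 in the DFI < 100 cohort, against 10.36, 11.71 and 12.42 in the DFI > 300 cohort. The cohorts overlapped over nearly all of this range. Its difference was -0.25 with an SE of 0.34 (-0.46 without dog 208513 and -0.11 without dog 168327), and all 4 of its probesets were above the reporter level and had differences between -0.37 and -0.25. LAMB1 was 9.36, 10.47 and 11.18 in the DFI < 100 cohort, against 8.69, 10.46 and 11.37 in the DFI > 300 cohort, a difference of -0.02 with an SE of 0.36. LAMC1 was 6.90, 7.41 and 8.79 in the DFI < 100 cohort, against 6.18, 7.99 and 8.75 in the DFI > 300 cohort, a difference of -0.32 with an SE of 0.37 (-0.59 without dog 208513 and -0.16 without dog 180223). LAMB2 differed by -0.03 with an SE of 0.55. These 4 chains make up the laminins measured above background here, and none had an unadjusted p under 0.05. The dim gamma chain LAMC3 was 4.96, 5.18 and 6.21 in the DFI < 100 cohort, against 5.06, 5.36 and 5.80 in the DFI > 300 cohort, a difference of -0.05.

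Among receptors for fibronectin and laminin, ITGA5 was 7.79, 8.77 and 9.99 in the DFI < 100 cohort, against 8.45, 9.22 and 10.48 in the DFI > 300 cohort. In the DFI < 100 cohort 3 dogs lay under every dog of the DFI > 300 cohort, and the difference was -0.54 with an SE of 0.37 (limma unadjusted p of 0.16), and -0.35 without dog 188084. ITGA6 was 8.15, 9.46 and 10.32 in the DFI < 100 cohort, against 7.80, 9.48 and 11.25 in the DFI > 300 cohort, a difference of -0.18 with an SE of 0.47. ITGA7 differed by -0.06 with an SE of 0.59. Of the receptors for collagen other than ITGA1, ITGA2 differed by 0.05 with an SE of 0.76 and a 95% interval of -1.57 to 1.68, so this number of dogs left a wide range of differences in either direction. ITGA10, a collagen receptor of cartilage, was 4.55, 7.03 and 7.96 in the DFI < 100 cohort, against 6.36, 6.89 and 7.93 in the DFI > 300 cohort, a difference of -0.33 with an SE of 0.45. Dog 223986 was lowest by a wide margin, the difference was -0.027 without it, and 3 dogs of the DFI < 100 cohort lay under every dog of the DFI > 300 cohort. ITGA11, a collagen receptor of fibroblasts, differed by 0.27. ITGAV differed by 0.05 with an SE of 0.26 and ITGB3 by 0.25 with an SE of 0.59, both smaller than their SE.

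Among chains of white blood cells, ITGB7 had the largest difference. It was 6.63, 7.00 and 8.62 in the DFI < 100 cohort, against 6.70, 8.06 and 9.17 in the DFI > 300 cohort, and 7 of 8 dogs of the DFI < 100 cohort lay under the DFI > 300 median. The difference was -0.71 with an SE of 0.37 (limma unadjusted p of 0.0734), and its 2 other probesets, both near background, differed by -0.07 and -0.58. Across dogs ITGB7 had an r of 0.42 with the T cell list (adjusted permutation p of 0.314). Its r was -0.17 with ITGA4 and -0.14 with ITGAE, and neither pair passed. ITGA4, its partner on lymphocytes, was 3.41, 5.63 and 8.66 in the DFI < 100 cohort, against 4.05, 6.21 and 8.13 in the DFI > 300 cohort, a difference of -0.43 with an SE of 0.73 (-0.86 without dog 212759 and -0.0838 without dog 193231). ITGAE, its other partner, was 5.89, 6.45 and 6.90 in the DFI < 100 cohort, against 5.99, 6.54 and 7.17 in the DFI > 300 cohort, a difference of -0.06. ITGB2 differed by 0.19 with an SE of 0.50, ITGAX by 0.27 and ITGAM by 0.25. ITGAL, the lymphocyte partner of ITGB2, was 5.50, 5.82 and 6.27 in the DFI < 100 cohort, against 5.27, 5.64 and 6.23 in the DFI > 300 cohort, a difference of 0.06. ITGAL had a second, dimmer probeset with a difference of 0.43 (limma unadjusted p of 0.0122), whose r with the first was 0.11. ITGA9, related to ITGA4, was 4.79, 5.14 and 6.77 in the DFI < 100 cohort, against 5.01, 6.04 and 6.71 in the DFI > 300 cohort, a difference of -0.50 with an SE of 0.31. Both of these related alpha chains overlapped between the cohorts.

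Markers of other cells moved with some of these genes. Of the mural list 8 of 9 genes were lower (88.9%, against 47.2% of all named genes) and 5 of 9 were above the reporter level. None of its genes had an unadjusted limma p under 0.05, and the list was not tested as a set. The mean of the mural list was 6.91 to 7.76 in the DFI < 100 cohort (7.40 ± 0.31, SD, n = 8) and 7.17 to 8.76 in the DFI > 300 cohort (7.81 ± 0.51, SD, n = 7). With this mean as a covariate, an alternative chosen after seeing the data, the difference of ITGA1 was -0.89 (limma unadjusted p of 0.05), that of ITGB1 was -0.32 (0.192) and that of ITGB5 was -0.71 (0.011). The endothelial mean was 6.37 to 8.59 in the DFI < 100 cohort and 6.10 to 7.56 in the DFI > 300 cohort, and with it as a covariate the differences were -1.16, -0.48 and -0.57. The osteoclast mean was 5.63 to 9.56 in the DFI < 100 cohort and 4.51 to 9.52 in the DFI > 300 cohort, and with it they were -1.39, -0.57 and -0.50. The macrophage mean was 7.38 to 9.52 in the DFI < 100 cohort and 7.18 to 10.80 in the DFI > 300 cohort, and with it they were -1.26, -0.52 and -0.53. With the mural mean, LAMA1 and LAMA5 differed by -1.74 and -0.76 (limma unadjusted p of 0.0785 and 0.0767).

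The partners of these chains inside and outside the cell were counted from 3 further lists. Among all named genes 47.2% were lower in the DFI < 100 cohort. Of 36 genes of the integrin adhesion complex, which couples the tails of integrins to actin, 32 were measured. Of these, 19 were lower (59.4%) and 13 higher in the DFI < 100 cohort, with a median difference of -0.07. None had an unadjusted limma p under 0.05. TLN1 and FERMT2, which bind beta tails and activate integrins, differed by -0.03 and 0.00, and ILK by 0.24. CD151, a tetraspanin that holds laminin-binding integrins, differed by -0.47 and CAV1 by -0.63. In the other direction, ACTN1 differed by 0.47, SHARPIN by 0.46 and ACTN4, which was near background, by 0.52. Of 16 other genes of the basement membrane 14 were measured, of which 8 were lower (57.1%) and 6 higher (median -0.20). The 2 chains of the most common collagen IV, COL4A1 and COL4A2, differed by -0.44 and -0.65, and NID1, which links laminin to collagen IV, by -0.47. The one gene of this list with an unadjusted limma p under 0.05 was COL4A3, a minor collagen IV chain near background, with 4.62 ± 0.38 (SD, n = 8) in the DFI < 100 cohort and 3.47 ± 0.87 (SD, n = 7) in the DFI > 300 cohort, a difference of 1.15 (limma unadjusted p of 0.003). Of 33 other ligands of integrins 28 were measured, of which 18 were lower (64.3%) and 10 higher (median -0.07). None of these ligands had an unadjusted limma p under 0.05. FN1, the ligand of ITGA5, differed by -0.04, and SPP1, a bone ligand of ITGAV pairs that is also on the osteoblast list, by 0.61. VCAM1, the ligand of ITGA4 on vessels, differed by -1.05 and THBS2 by 1.28, both with an unadjusted limma p above 0.2. Of the cell type lists only skeletal muscle held genes with an unadjusted p under 0.05, MYH1 and TNNT1, each near background and each with a difference of 0.44.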

How the data were processed

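RNA that met the paper's integrity threshold was taken from frozen tumors and hybridised to Affymetrix Canine 2.0 arrays in 2 batches. The arrays were summarised by the authors with the PLIER algorithm of Affymetrix Expression Console. The 3' over 5' ratios of the arrays are given above. The deposited values are linear intensities, with 1 signal for each probeset on each array. How probes were normalized before PLIER, which software version was used and which arrays shared a batch is not stated in the sources used here. The qRT-PCR data and RMA values were not analysed here.

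Of 43035 probesets, 175 controls were left out. Log2 values of 42860 probesets, with no offset, were tested for a cohort difference (lmFit and eBayes of limma 3.58.1, R 4.3.3, no covariate), with Benjamini-Hochberg adjustment over all of them. Gene names came from the platform annotation: 29254 probesets had 1 symbol, 439 several and 13167 none. Correlations were computed in Python 3.11.15 with SciPy 1.17.1. The limma fit was also run on the arrays' values with known shifts added, as a check of the code.

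Values per cohort were given in full for the 2 brightest genes of each class of chains, every gene with an unadjusted limma p under 0.05 and the 5 most variable genes above the reporter level, and genes of other lists were named where that p was under 0.05. Other genes were named for their role, or after their values were seen. The genes and lists were chosen with earlier results of these data known. Cohorts are those of the sample labels, and each dog is a separate animal, so spread is between animals. The alternatives were the methods' t-test (unpaired, equal variances), a variance trend, an offset of 16, quantile normalization, a filter on dim probesets, array weights, age as a covariate, no Greyhounds, osteoblastic tumors only, each dog left out, and a gene's probesets averaged.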

Additional observations from a re-analysis of the deposited data

Results flagged for a closer look

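The gap of the highest and lowest dog to the next was measured for each gene in each cohort, in 70 groups of signals. A dog stood apart from its cohort by Dixon's 95% criterion in 7 of them, where chance gives about 1 in 20. The one gene above the reporter level was ITGB3, for which dog 208513 of the DFI > 300 cohort had a log2 signal of 5.33 and the next dog 7.57. The other 6 genes were near background. ITGA9 in the DFI < 100 cohort was highest in dog 208911 at 6.77, with the next dog at 5.66. ITGB4 in the DFI < 100 cohort was lowest in dog 208756 at 4.54, with the next at 5.38. ITGB6 in the DFI > 300 cohort was lowest in dog 168327 at 4.57, with the next at 4.96. LAMA1 in the DFI > 300 cohort was highest in dog 193231 at 8.12, with the next at 6.08. LAMB4 in the DFI < 100 cohort was lowest in dog 173175 at -8.39, with the next at -1.06, and LAMC3 in the same cohort was highest in that dog at 6.21, with the next at 5.48.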

How the results depend on the processing

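The number of integrin and laminin genes with an adjusted p under 0.05 was 0 under every alternative run. The number with an unadjusted p under 0.05 was 5, and it was 3 among probesets above the median, 3 with age as a covariate, 3 in osteoblastic tumors and 2 with the mural mean as a covariate, an alternative chosen after seeing the data. It was 2 to 5 with 1 dog left out: 2 without dog 168327, 180119, 188084, 190030 or 204714, and 3 without dog 193231 or 208756. ITGA1 kept an unadjusted p under 0.05 in the 10 settings that add no marker list, with differences of -1.65 to -1.08, and in all 15 fits without a dog, with -1.52 to -1.13, while with the mural mean its difference was -0.89 and its p 0.05. Without 1 dog, that p held in 8 of 15 fits for ITGB1 and LAMA1, 7 for ITGB5 and 6 for LAMA5. The number of genes lower in the DFI < 100 cohort was 23, 15 among the probesets above the median (fewer genes tested) and 20 to 26 without 1 dog. The 16 genes above the reporter level became 9 when all probesets of a gene were averaged, and the 14 related pairs became 9, all 9 among the 14. The genes with values given in full per cohort were followed singly in each setting, the other members only in the counts above. Differences of 14 of the genes so followed, none with an unadjusted p under 0.05, changed sign in some setting or without 1 dog, and the cause was not tested. Without Greyhounds they were -0.22 for ITGAV, -0.53 for ITGA2, -0.0351 for ITGB2, 0.30 for ITGA10 and 0.0256 for LAMC3. In osteoblastic tumors they were -0.25 for ITGAV, 0.0813 for LAMB1, -0.52 for ITGA2, -0.0887 for ITGB3, -0.0187 for ITGB2, 0.18 for ITGA4 and 0.0846 for LAMC3. With age they were 0.0313 for LAMA4, 0.17 for ITGA7 and 0.0114 for ITGAE. With array weights they were -0.33 for ITGA2 and -0.0284 for ITGB3, and with probesets averaged 0.049 for LAMB1, -0.27 for ITGA2 and 0.0433 for LAMB2. Without 1 dog the range was -0.11 to 0.16 for ITGAV, -0.30 to 0.15 for LAMB1, -0.47 to 0.11 for ITGA6, -0.43 to 0.38 for ITGA2, -0.46 to 0.20 for LAMB2, -0.20 to 0.47 for ITGB3, -0.41 to 0.27 for ITGA7, -0.0377 to 0.52 for ITGB2, -0.14 to 0.057 for ITGAE, -0.0232 to 0.14 for ITGAL and -0.18 to 0.0186 for LAMC3. Of the genes with values given in full per cohort, LAMA1, LAMA5, ITGA9 and LAMC3 had no value in the filter on dim probesets. With probesets averaged, r was 0.52 for ITGB2 and ITGAM, 0.63 for ITGB2 and ITGAX, 0.38 for ITGA1 and the mural list, and 0.61 for ITGA5 and the endothelial list, and these 4 no longer had an adjusted p under 0.05. ITGB3 with ITGA2B also lost it with the offset, quantile normalization and averaged probesets. Dim signals near the reporter level, and 15 dogs without known array batches, limit the precision. No paired analysis was possible because each dog belongs to 1 cohort and no number is shared between the cohorts.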
